A study of Rattus norvegicus with 30 samples.

Results

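The heat shock chaperones of the cytosol and mitochondria were followed in frontal cortex of 3 genotypes of rat. The group was defined by gene symbol and holds 10 genes: Hsp90aa1, Hsp90ab1, Hspa8, Hspa4, Hspa4l, Hsph1, Dnajb1, Dnaja1, Hspd1 and Hspe1. All 10 were found among the 17134 genes measured by RNA sequencing. The animals were male Sprague Dawley rats on a normal diet (n = 10 males/group). WT rats have their own amylin, a β-cell hormone whose rat form does not aggregate into amyloid. HIP rats carry in addition human amylin, which forms amyloid, expressed in pancreatic β-cells and not in the brain, and are described in the study as developing type-2 diabetes. AKO rats lack rat amylin; its gene, Iapp, was not found by symbol, 2335 genes of the table are named by an identifier alone, and the knockout was not checked. HIP and WT rats were sequenced at 15 to 16 months of age; the age of the AKO rats sequenced here is not stated separately. Names of 4 AKO rats contain KAH and those of the other 6 contain AKO, and the labels do not say whether this marks separate litters or sublines. HIP vs. WT rats differ in human amylin and diabetes, AKO vs. WT rats in the absence of rat amylin, and HIP vs. AKO rats in all of these, so in both comparisons with HIP rats human amylin and diabetes cannot be told apart.

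Molecular chaperones bind proteins that are not folded and keep them from aggregating. HSP70 proteins, here the constitutive Hspa8 product HSC70, bind exposed stretches of a client in an ATP-driven cycle: J-domain proteins such as those of Dnaja1 and Dnajb1 deliver the client and start ATP hydrolysis, and the HSP110 proteins of Hspa4, Hspa4l and Hsph1 exchange the nucleotide so that the client is released. Clients such as kinases and steroid receptors then pass to HSP90, made by Hsp90aa1 (more inducible) and Hsp90ab1 (more constitutive), while in the mitochondrial matrix the barrel of HSP60 (Hspd1) and its lid HSP10 (Hspe1) fold imported proteins. Heat shock factor 1 raises the transcription of many of these genes when unfolded proteins accumulate, and in neurons the HSP70, J-domain and HSP110 proteins together can take apart protein aggregates.

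The values are read counts per gene that the depositors normalized for sequencing depth. They summed to between 15.4 and 18.0 M per rat (median 16.9 M, where M is mega), and the number of reads behind them, estimated from the spacing of low values, ran from 12.9 M in AKO rat 4KAH27 to 33.1 M in AKO rat 7AKO19 (median 16.3 M). The estimate is approximate, since between 80.6% and 84.0% of the values below 100 lay within 0.02 of a whole number of reads. The HIP group had a median of 15.7 M (lowest 13.7 M, highest 16.7 M) and the WT group one of 19.1 M (highest 21.1 M). The ranges overlapped, with WT rats 10RT43 at 12.9 M and 10RT50 at 16.3 M. The library numbers in the labels interleave the genotypes. In bulk tissue, a change in the share of a cell type and a change in RNA per cell cannot be told apart.

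Some libraries stood apart from the rest, and results that rest on them are given with and without them. In WT rat 10RT43, the 6 neocortex markers averaged 6.34 on the log2 scale, with 1 of the 6 at 0, against 10.50 or more in the other 29 rats, while the 4 cerebellum markers summed to 41401 normalized counts, led by Gabra6 at 17979, against at most 43.7 in the other WT rats. Over all genes, its correlation to another library had a median of 0.756, the lowest of the 30 rats. HIP rat 10RT46 had pineal markers summing to 22241 (led by Tph1, 19081) and choroid plexus markers summing to 15789 (led by Ttr, 14881). AKO rat 7AKO19 had choroid plexus markers at 3822, and HIP rat 10RT48 had microglia markers at 5869, against at most 3223 in the other HIP rats. These 4 are called the libraries that stand apart. A further pair, AKO rats 6KAH98 and 4KAH27, had such medians of 0.899 and 0.941, and 4KAH27 had the highest striatum marker sum of the AKO group (16644, median 6273). The striatum sum was higher in WT rat 10RT55 (17955, WT median 6484), and HIP rat 10RT54 was the highest HIP rat (12222, HIP median 4956). Neither is counted with this pair or with the libraries that stand apart. HIP rat 12RT23 had a cerebellum marker sum of 4164 beside a neocortex list mean that was the highest of the 30 rats.

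Olfactory bulb markers were high in a further 10 libraries, spread over the genotypes. The list of 4 genes (Eomes, Tbx21, Doc2g and Cdhr1) had a mean log2 value of 7.26 or more in WT rats 10RT50, 10RT51 and 10RT57, HIP rats 10RT37, 10RT49 and 10RT53 and AKO rats 4KAH35, 6AKO35, 6KAH99 and 7AKO28, and of 5.79 or less in the other 20 rats. Its summed count was highest in WT rat 10RT51 (10059.9), AKO rat 6AKO35 (9288) and WT rat 10RT50 (8744), against a median of 269 in WT, 456 in HIP and 885 in AKO rats; Cdhr1 was its most abundant gene in all 10 libraries and 0 of the 4 genes were at 0 in them. The version without these 10 libraries was chosen after seeing the data and leaves 7 WT, 7 HIP and 6 AKO rats.

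No chaperone gene passed an adjusted p of 0.05 in any of the 3 comparisons. In HIP vs. WT rats, limma called 0 of the 10 chaperone genes and 0% of the 17085 genes tested (0 genes), and at an unadjusted p under 0.05 it called 0 of the 10 against 2.57% of all genes (439 genes). In AKO vs. WT rats, 0 of the 10 were called against 0.0997% of 17058 genes (17 genes), and 1 of the 10, Hspa8, had an unadjusted p under 0.05 against 9.34% of all genes (1594 genes). In HIP vs. AKO rats, 0 of the 10 were called against 0.17% of 17092 genes (29 genes), and 2 of the 10, Hsp90aa1 and Hspa4, had an unadjusted p under 0.05 against 12.7% of all genes (2179 genes). With 10 genes, 1 or 2 of them is near the background share and is not a result about the chaperones. Over the alternatives the unadjusted count ran from 1 to 5 of 10 in AKO vs. WT and from 1 to 4 of 10 in HIP vs. AKO rats; the closing section gives the share of all genes in the same fits. The ranges of the groups overlapped for all 10 genes in all 3 comparisons. The share of all genes with overlapping ranges is not given here, so this is not a result about the chaperones.

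The direction differed between the comparisons. Of the 10 genes, 5 had a positive and 5 a negative log2 fold change in HIP vs. WT rats (median 0.0036, against 0.0018 over all genes tested), with values from -0.061 for Dnajb1 to 0.080 for Hsp90aa1. In AKO vs. WT rats, 2 were positive and 8 negative (median -0.066, against 0.0014 over all genes), from -0.23 for Hspa4l to 0.100 for Hsp90ab1. In HIP vs. AKO rats, 8 were positive and 2 negative (median 0.087, against 0.0047), from -0.086 for Hsp90ab1 to 0.21 for Hspa4l. The comparisons share groups of rats, so these counts are not independent of each other. The 95% intervals of the 10 genes in HIP vs. WT rats lay between -0.26 and 0.35 on the log2 scale, and both of these bounds belong to Hsph1. Without WT rat 10RT43 (10 HIP and 9 WT rats) they lay between -0.26, for Hsph1, and 0.20, for Hspa4l, and the interval of Hsph1 was -0.26 to 0.082.

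Markers of cell types and of neighbouring regions moved beside these values. In HIP vs. WT rats, 6 of 6 neocortex markers were higher (median log2 fold change 0.53), 6 of 6 striatum (-0.56) and 3 of 3 GABA neuron markers (-0.20) lower, 2 of 4 neuron markers lower (-0.0095) and 5 of 6 microglia markers higher (0.035). In AKO vs. WT rats, 4 of 4 neuron (-0.20) and 3 of 3 GABA neuron markers (-0.39) were lower, 4 of 6 microglia (0.21) and 5 of 6 neocortex markers (0.37) higher, and 3 of 6 striatum markers lower (-0.011). Between HIP and AKO rats, 3 of 4 neuron (0.23), 5 of 6 neocortex (0.17) and 2 of 3 GABA neuron markers (0.21) were higher, and 4 of 6 microglia (-0.20) and 6 of 6 striatum markers (-0.43) lower. Some of these medians rest on the 4 libraries that stand apart: without them the neocortex list was at 0.11 in HIP vs. WT and -0.10 in AKO vs. WT rats, and the microglia list at -0.17 in HIP vs. WT rats (6 of 6 lower), 0.12 in AKO vs. WT and -0.36 in HIP vs. AKO rats. Further medians moved to -0.069 for GABA neurons and 0.091 for neurons in HIP vs. WT rats, to -0.22 for striatum in AKO vs. WT rats and to 0.24 for neocortex in HIP vs. AKO rats. By limma, 0 of the markers of these 5 lists passed after adjustment with all rats; with an unadjusted p under 0.05 were 2 of 25 in HIP vs. WT, 4 of 25 in AKO vs. WT and 5 of 25 in HIP vs. AKO rats. The neuron markers, all 4 detected, summed to a median of 103767 normalized counts in WT, 104136 in HIP and 82984 in AKO rats, and the part of any of these lists in the chaperone values was not tested.

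**Figure D1:**
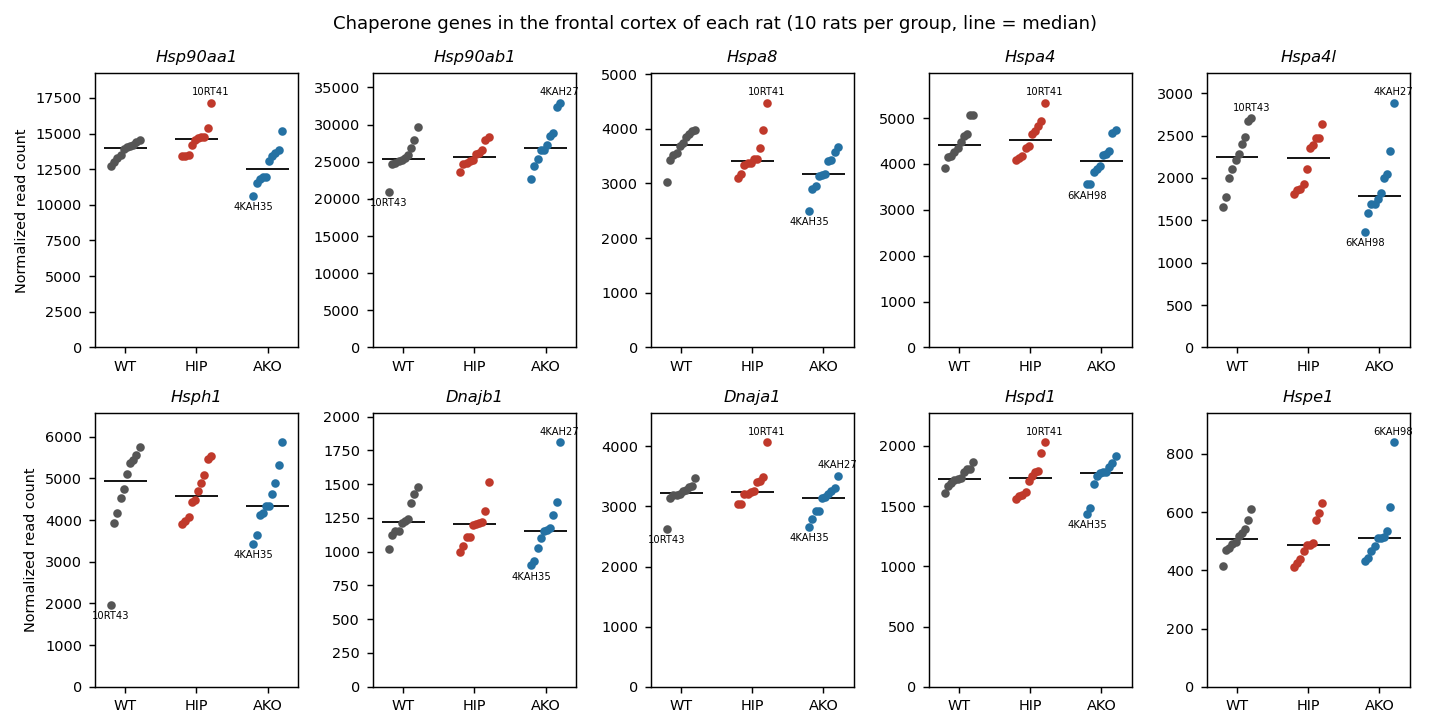
Normalized read count of each of the 10 chaperone genes in each rat, by genotype (10 rats per group; points are rats in order of value, lines are group medians, axes start at 0). The groups overlap for every gene, and single rats stand out, such as WT rat 10RT43 for Hsph1 (1972) and AKO rat 4KAH27 for Dnajb1 (1813).

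**Figure D2:**
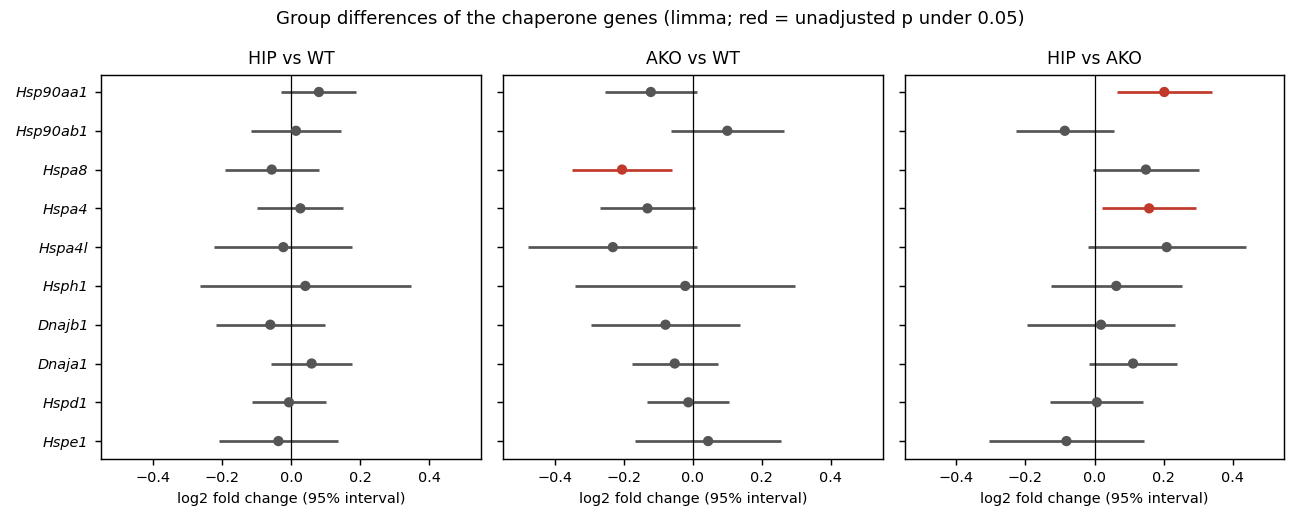
Log2 fold change of each chaperone gene with its 95% interval in the 3 comparisons (limma on log2 of the normalized count + 1, n = 10 rats per group). Intervals in red, those with an unadjusted p under 0.05, are Hspa8 in AKO vs. WT rats and Hsp90aa1 and Hspa4 in HIP vs. AKO rats, and no gene passed after adjustment.

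The HSP90 genes Hsp90aa1 (ENSRNOG00000059714) and Hsp90ab1 (ENSRNOG00000019834) encode the inducible and the constitutive cytosolic HSP90. Hsp90aa1 ranged from 12721 to 14555 normalized counts in WT rats (median 13980.2), from 13406 to 17166 in HIP rats (median 14592) and from 10650.4 to 15199 in AKO rats (median 12532). All 10 HIP rats lay above the AKO median and 9 of 10 AKO rats lay below the WT median, although the ranges overlapped; HIP rat 10RT41 was the highest and AKO rat 4KAH35 the lowest of the 30. Hsp90aa1 averaged 14582 ± 1126 in HIP vs. 12708 ± 1356 in AKO rats (mean ± SD), a log2 fold change of 0.20 (95% interval 0.065 to 0.34, p = 0.00579), which did not pass the limma test after adjustment (adjusted p = 0.228). It was 0.28 against the 4 rats named KAH (p = 0.00551) and 0.15 against the 6 named AKO (p = 0.0488). The difference in HIP vs. WT rats was 0.080 (-0.028 to 0.19, p = 0.139; higher in 7 of 10 HIP rats than the WT median), and in AKO vs. WT rats it was -0.12 (-0.26 to 0.012, p = 0.0716), which was -0.15 (p = 0.0229) without the 4 libraries that stand apart, -0.20 (p = 0.033) for the rats named KAH and -0.069 (p = 0.307) for those named AKO. Without the 10 libraries with bulb markers, the HIP vs. AKO difference was 0.19 (p = 0.0436).

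Hsp90ab1 ranged from 20942 to 29666 in WT rats (median 25362), from 23688 to 28289 in HIP rats (median 25624) and from 22673 to 32963 in AKO rats (median 26907). AKO rats 4KAH27 (32963) and 6KAH98 (32434) were the highest of the 30, above the highest WT and HIP rats, and WT rat 10RT43 was the lowest. The log2 fold change was 0.100 in AKO vs. WT rats (-0.063 to 0.26, p = 0.217) and -0.086 in HIP vs. AKO rats (p = 0.22). Without 4KAH27, 6KAH98 and the 4 libraries that stand apart, these values changed sign, to -0.015 and 0.010. They kept their sign with any 1 rat left out (0.068 to 0.13 and -0.12 to -0.056) and with only the 6 rats named AKO (0.060 and -0.046), and were 0.21 (p = 0.044) and -0.18 (p = 0.0461) without the 10 libraries with bulb markers. The log2 ratio of Hsp90aa1 to Hsp90ab1 within each rat had a median of -0.89 in WT rats (from -1.19 to -0.59), -0.83 in HIP rats (from -1.07 to -0.53) and -1.14 in AKO rats (from -1.46 to -0.72). This ratio was chosen after the values were seen and was not tested; its lowest values were in 4KAH27 (-1.46) and 6KAH98 (-1.45), and without the 6 libraries its mean ± SD was -0.93 ± 0.12 in 9 WT, -0.83 ± 0.16 in 8 HIP and -1.04 ± 0.18 in 7 AKO rats.

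Hspa8 (ENSRNOG00000034066) encodes HSC70, the constitutive HSP70 of the cytosol, which at synapses also removes clathrin from vesicles. Its values ran from 3028 to 3981 in WT rats (median 3709), from 3091 to 4477 in HIP rats (median 3409) and from 2502 to 3672 in AKO rats (median 3164). All 10 AKO rats lay below the WT median, and 4KAH35, the lowest of the 30, was well below the next AKO rat (2898). Hspa8 averaged 3188 ± 349 in AKO vs. 3666 ± 295 in WT rats (mean ± SD), a log2 fold change of -0.21 (95% interval -0.35 to -0.060, p = 0.00777), the smallest unadjusted p of a chaperone gene in this comparison; the limma test did not pass after adjustment (adjusted p = 0.357). It was -0.28 (p = 0.0143) for the 4 rats named KAH and -0.16 (p = 0.0328) for the 6 named AKO, and over all alternatives it ran from -0.28 to -0.13, with adjusted p from 0.126 to 0.598. The p was under 0.05 in 32 of 33 alternatives; without the 10 libraries with bulb markers, among them 4KAH35, it was 0.164 (log2 fold change -0.13). In HIP vs. AKO rats the log2 fold change was 0.15 (p = 0.0578; 9 of 10 HIP rats above the AKO median) and in HIP vs. WT rats -0.056 (p = 0.399; 8 of 10 HIP rats below the WT median; 0.016 without the 10 libraries). The HIP vs. AKO value ran from 0.10 to 0.22 over the alternatives, and 10 of 33 gained a p under 0.05. It was 0.19 (p = 0.0352) without the 4 libraries, 0.20 (p = 0.0256) without the 6 and 0.10 (p = 0.202) against the rats named AKO. Processed copies of Hspa8, Hspd1 and Hspe1 are common in mammalian genomes, and how reads that match more than 1 copy were counted is not given in the sources used here.

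The HSP110 genes Hspa4 (ENSRNOG00000016596), Hspa4l (ENSRNOG00000010819) and Hsph1 (ENSRNOG00000000902) encode the nucleotide exchange factors of cytosolic HSP70. Hspa4 ranged from 3916 to 5075 in WT rats (median 4413), from 4086 to 5336 in HIP rats (median 4519) and from 3554 to 4748 in AKO rats (median 4073). All 10 HIP rats lay above the AKO median, with 10RT41 again the highest, and 8 of 10 AKO rats lay below the WT median. The log2 fold change was 0.16 in HIP vs. AKO rats (95% interval 0.022 to 0.29, p = 0.0248), which did not pass the limma test after adjustment (adjusted p = 0.324) and ran from 0.11 to 0.23 over the alternatives. The p was under 0.05 in 30 of 33 of them; it was 0.23 (p = 0.0279) against the rats named KAH and 0.22 (p = 0.0204) without the 10 libraries with bulb markers, but 0.11 (p = 0.106) against the 6 rats named AKO and 0.12 (p = 0.104) without the 6 libraries, and p was 0.0536 without HIP rat 10RT41. In AKO vs. WT rats the log2 fold change was -0.13 (p = 0.0613), and 7 of 33 alternatives gained a p under 0.05. It was -0.15 (p = 0.0455) without the 4 libraries and -0.20 (p = 0.0439) without the 10 libraries with bulb markers. For the rats named AKO it was -0.085 (p = 0.216), and without the 6 libraries -0.097 (p = 0.156).

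Hspa4l ranged from 1656 to 2703 in WT rats (median 2251), from 1814 to 2638 in HIP rats (median 2231) and from 1364 to 2888 in AKO rats (median 1783). The AKO group held both the lowest rat of the 30, 6KAH98, and the highest, 4KAH27, and 8 of 10 AKO rats were below the WT median. The log2 fold change was -0.23 in AKO vs. WT rats (95% interval -0.48 to 0.013, p = 0.0619) and 0.21 in HIP vs. AKO rats (-0.020 to 0.44, p = 0.0712). With 4KAH27 alone left out, these became -0.30 (p = 0.00877) and 0.28 (p = 0.00813), and over all alternatives they ran from -0.33 to -0.18 and from 0.16 to 0.28.

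Hsph1 had a median of 4928 in WT rats, 4588 in HIP rats and 4337 in AKO rats. WT rat 10RT43, the library with cerebellum markers, had 1972 normalized counts, while the other WT rats ran from 3926 to 5764; HIP rats ran from 3899 to 5527 and AKO rats from 3435 to 5874. No difference between the groups passed an unadjusted p of 0.05. The log2 fold change in HIP vs. WT rats was 0.041 (p = 0.783) with all rats and -0.091 (p = 0.287) without 10RT43, so this library sets its sign.

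The J-domain genes Dnajb1 (ENSRNOG00000021824) and Dnaja1 (ENSRNOG00000007029) encode HSP40 co-chaperones that load clients onto HSP70. Dnajb1 had medians of 1222 in WT, 1204 in HIP and 1157 in AKO rats. In AKO rats it ran from 900 to 1370.1 in 9 animals and reached 1813 in 4KAH27, above every WT and HIP rat. The log2 fold change was -0.079 in AKO vs. WT rats (p = 0.455) and ran from -0.15 to -0.038 with 1 rat left out. It was -0.20 (p = 0.0409) without the 6 libraries, but 0.013 (p = 0.933) for the rats named KAH and 0.035 (p = 0.794) without the 10 libraries with bulb markers. Dnaja1 had medians of 3229 in WT, 3248 in HIP and 3148 in AKO rats, with 10RT41 highest (4074) and 10RT43 lowest (2632). In HIP vs. AKO rats its log2 fold change was 0.11 (95% interval -0.015 to 0.24, p = 0.0823), or 0.16 (p = 0.0303) without the 4 libraries that stand apart and 0.068 (p = 0.434) without the 10 libraries with bulb markers.

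Hspd1 and Hspe1 encode the chaperonin of the mitochondrial matrix. Hspd1 (ENSRNOG00000014525), which encodes HSP60, ran from 1610.5 to 1868 in WT rats (median 1726), from 1562 to 2032 in HIP rats (median 1730) and from 1434 to 1912 in AKO rats (median 1778). The highest HIP rat was 10RT41 and the lowest AKO rat 4KAH35, the WT rats spanned the narrowest range, and that range lay within those of the HIP and AKO rats. Its log2 fold changes were -0.0065 in HIP vs. WT rats (95% interval -0.11 to 0.099), -0.013 in AKO vs. WT rats (-0.13 to 0.11) and 0.0068 in HIP vs. AKO rats (-0.13 to 0.14). Hspe1 (ENSRNOG00000051624), which encodes HSP10, had medians of 507 in WT, 486 in HIP and 510.2 in AKO rats. AKO rat 6KAH98 had 841 counts of Hspe1, above the 616 of the next AKO rat, and without this animal the log2 fold change in AKO vs. WT rats went from 0.044 to -0.031.

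Single rats recurred at the extremes. HIP rat 10RT41 was the highest of its group for 5 of the 10 genes (Hsp90aa1, Hspa8, Hspa4, Dnaja1 and Hspd1), AKO rat 4KAH35 the lowest of its group for 6 of the 10 (Hsp90aa1, Hspa8, Hsph1, Dnajb1, Dnaja1 and Hspd1) and 4KAH27 the highest for 4 (Hsp90ab1, Hspa4l, Dnajb1 and Dnaja1). Microglia markers summed to 2450.2 in 10RT41, the lowest HIP rat (median 3003), to 4548 in 4KAH35, the highest AKO rat (median 3849), and to 1780.1 in 4KAH27, the lowest AKO rat. Neuron markers summed to 122669 in 10RT41, the highest HIP rat, and to 67040.1 in 4KAH35, the lowest AKO rat, and the astrocyte and endothelium lists had their highest AKO means in 4KAH35 (12.48 and 9.83 on the log2 scale) and their lowest in 4KAH27 (11.21 and 7.98); the part of these lists in the chaperone values was not tested. Within genotypes, Hspd1 and Hsp90aa1 varied little: the SD of the log2 value between rats of a group was 0.11 for both, at percentiles 2.99 and 3.13 among 11590 genes with a mean of at least 100. Dnaja1 was at percentile 3.63, Hspa4 at 6.53, Hsp90ab1 at 6.7 and Hspa8 at 11.5. Dnajb1 (38.1), Hspe1 (39.3), Hspa4l (51) and Hsph1 (66.7) were nearer the middle. The genes behind these percentiles were not matched to the chaperone genes by mean count, so the part of abundance in them was not tested. Without the 6 libraries the percentiles of Hspd1, Hsp90aa1, Hspa4 and Hspa8 were 10.4, 10.3, 19.2 and 34.5, and those of Dnaja1 and Hsp90ab1 4.02 and 4.37.

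Promoter sequences were examined because these genes share a known regulator. Heat shock factor 1 binds the heat shock element, a row of GAA units in alternating orientation. The RefSeq promoter table (GRCr8, from 250 bases before to 50 after the start site) held 9 of the 10 genes, and Hsp90aa1 is named only. A run of 3 units, GAANNTTCNNGAA or its reverse complement TTCNNGAANNTTC, was present in 5 of the 9 windows (Hspa8, Hsph1, Dnaja1, Hspd1 and Hspe1), against 0.798% of all 33469 promoters (267). A run of 2 units, GAANNTTC or TTCNNGAA, each of which reads the same on both strands, was in 7 of the 9 against 15.9%, and a run of 4 units in 2 of the 9, Hspd1 and Hspe1, against 0.0478%. Hsp90ab1 and Hspa4 had no run of 2 units, and Dnajb1 and Hspa4l had no run of 3. In the other chaperone lists, a run of 3 units was found in 1 of 15 co-chaperone promoters (Chordc1), in 1 of 8 of the chaperonin TRiC (Cct4), in 0 of 9 of inducible HSP70 and small heat shock proteins (5 of the 9 had a run of 2 units), in 0 of 8 of mitochondrial chaperones and proteases, in 0 of 2 of the heat shock factors and in 0 of 11 of the endoplasmic reticulum. A match describes these letters in this window and is not evidence of binding. For each named gene, 1 window was scanned, and only for exact units. A missing match, as in the inducible HSP70 and small heat shock protein list, therefore does not show that a gene lacks the element.

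The promoters with a run of 3 units are shown 5′ to 3′, with those units in capitals; Hspd1 is left out because its window is the opposite strand of much of the Hspe1 window.
Hspa8, RefSeq GRCr8 chr8:50080264-50080563 (plus strand): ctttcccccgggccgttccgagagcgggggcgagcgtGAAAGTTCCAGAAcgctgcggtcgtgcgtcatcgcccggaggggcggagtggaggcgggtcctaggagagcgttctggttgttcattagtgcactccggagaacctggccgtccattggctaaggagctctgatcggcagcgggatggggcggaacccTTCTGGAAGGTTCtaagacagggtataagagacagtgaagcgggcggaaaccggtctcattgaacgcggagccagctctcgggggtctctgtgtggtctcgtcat
Hsph1, RefSeq GRCr8 chr12:10427118-10427417 (plus strand): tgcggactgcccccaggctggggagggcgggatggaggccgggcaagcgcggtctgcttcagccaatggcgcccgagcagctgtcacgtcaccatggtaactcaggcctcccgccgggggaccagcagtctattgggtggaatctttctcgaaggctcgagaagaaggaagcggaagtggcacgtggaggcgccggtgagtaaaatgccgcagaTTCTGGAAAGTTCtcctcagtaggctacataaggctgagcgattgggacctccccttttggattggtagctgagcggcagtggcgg
Dnaja1, RefSeq GRCr8 chr5:60638154-60638453 (plus strand): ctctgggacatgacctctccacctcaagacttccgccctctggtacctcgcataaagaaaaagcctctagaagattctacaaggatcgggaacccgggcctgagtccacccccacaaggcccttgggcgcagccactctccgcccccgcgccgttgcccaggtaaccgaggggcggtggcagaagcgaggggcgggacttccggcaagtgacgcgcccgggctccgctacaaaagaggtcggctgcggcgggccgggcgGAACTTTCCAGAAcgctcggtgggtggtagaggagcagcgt
Hspe1, RefSeq GRCr8 chr9:64084077-64084376 (plus strand): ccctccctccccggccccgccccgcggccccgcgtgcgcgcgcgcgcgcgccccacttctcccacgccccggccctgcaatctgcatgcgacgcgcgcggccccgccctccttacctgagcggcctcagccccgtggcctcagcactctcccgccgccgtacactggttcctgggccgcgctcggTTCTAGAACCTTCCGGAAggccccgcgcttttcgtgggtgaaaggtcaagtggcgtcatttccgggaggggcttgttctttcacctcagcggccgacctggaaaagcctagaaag
In Hspa8 the runs began 213 and 55 bases before the start site (-213 and -55), in Hsph1 at -36 and in Dnaja1 9 bases after it. Hspd1 and Hspe1 lie head to head on chromosome 9 with start sites 290 bases apart, and their windows (Hspd1 at chr9:64083988-64084287, minus strand) share 211 bases. The capitals in the Hspe1 promoter are a run of 4 units beginning at -65, and the same bases form the run that begins at -242 of Hspd1.

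**Figure D3:**
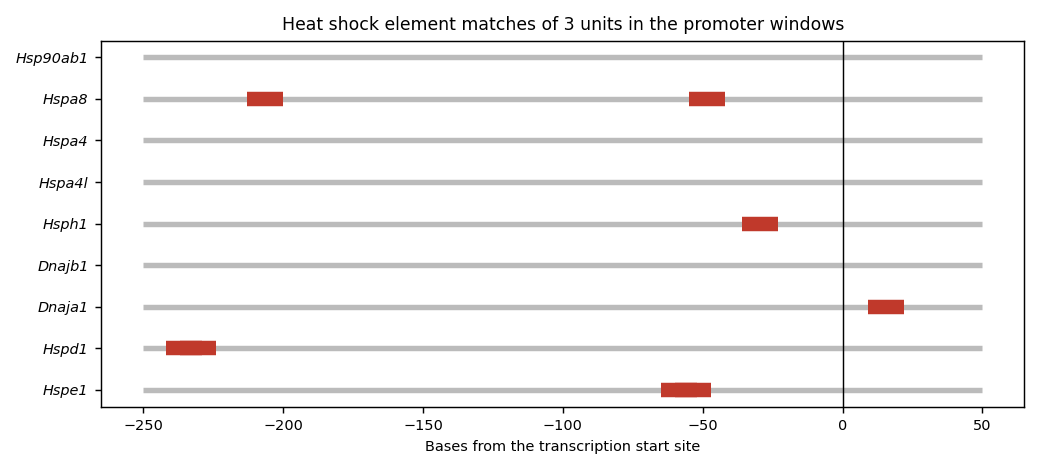
Position of heat shock element matches of 3 units (red, drawn to scale) in the promoter windows of 9 chaperone genes, in bases from the transcription start site (line at 0). Matches lie in 5 of the 9 windows, and the pair of overlapping matches in Hspd1 and in Hspe1 is the same stretch of DNA read from each gene.

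Whether the chaperone genes vary together was examined across rats after the mean of each genotype was subtracted from the log2 values, in a family of 75 correlations (45 pairs of chaperone genes, and each gene with the estimated reads, the neocortex list and the striatum list) with p-values from 100000 permutations within genotypes. Over all 30 rats, 10 of the 45 pairs passed an adjusted p of 0.05, all 10 with positive r, and the median r was 0.324. The number was 4 of 45 without the 4 libraries that stand apart, 12 of 45 without the 6, 1 of 45 after quantile normalization and 0 of 45 over the 20 rats without the 10 libraries with bulb markers, so it depends strongly on these choices. The median r over the 45 pairs was 0.364, 0.374, 0.195 and 0.311 in the same order. Over the 20 rats, 0 pairs passed although the median r was close to that over 30 rats. Within a genotype and without the libraries that stand apart, 2 pairs passed in 9 WT rats, 0 in 8 HIP rats and 0 in 9 AKO rats. The median r in these was 0.140, 0.503 and 0.331. The share of all gene pairs that would pass, and their median r, were not computed. The counts and medians of the 45 pairs are therefore not shown to be particular to the chaperones.

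Hsp90aa1 and Hspa4 passed in each of these versions over the genotypes but the last (r = 0.659 over 20 rats, p = 0.00559, adjusted p = 0.0903). This pair had r = 0.628 over the 30 rats (p = 0.00044, adjusted p = 0.011; rho = 0.65, p = 0.00034), r = 0.673 without the 2 rats farthest from the median of Hsp90aa1, and r = 0.698 after quantile normalization (adjusted p = 0.0127). Among the HSP110 genes, 2 of the 3 pairs passed over 30 rats. Hspa4 and Hsph1 had r = 0.591 (p = 0.00021, adjusted p = 0.00937; rho = 0.752, p = 1e-05, the smallest these permutations can give; r = 0.538 without the 2 farthest rats). Hspa4 and Hspa4l had r = 0.507 (p = 0.0074, adjusted p = 0.0421; rho = 0.59, p = 0.00128; r = 0.445 without the 2 farthest rats). Between Hspa4l and Hsph1, r was 0.0955 over 30 rats (p = 0.63; rho = 0.382, p = 0.0428). Over the 24 rats without the 6 libraries, r was 0.754 for Hspa4 and Hsph1, 0.862 for Hspa4 and Hspa4l and 0.774 for Hspa4l and Hsph1, with adjusted p of 0.00175, 0.00075 and 0.00175; after quantile normalization over 30 rats they were 0.329, 0.362 and -0.124, with no adjusted p under 0.05, and over the 20 rats without the 10 libraries with bulb markers 0.559, 0.311 and -0.103 (adjusted p = 0.0641, 0.522 and 0.721).

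All pairs among Hsp90aa1, Dnaja1 and Hspd1 passed over 30 rats (adjusted p = 0.0421 for Dnaja1 and Hspd1). Hspa8 with Hspd1 (r = 0.565, adjusted p = 0.0352) and Hsph1 with Dnaja1 (r = 0.559, adjusted p = 0.0361) did too. None of these passed after quantile normalization (adjusted p from 0.0626 to 0.213) or without the 10 libraries with bulb markers (0.128 to 0.23). All passed without the 6 libraries (0.00825 to 0.048). Only Hsp90aa1 with Hspd1 did without the 4 libraries that stand apart (0.042). Hsp90aa1 had r = 0.554 with Hspd1 (p = 0.0057, adjusted p = 0.0389; rho = 0.411, p = 0.0361; r = 0.376 without the 2 farthest rats) and r = 0.532 with Dnaja1 (p = 0.00457, adjusted p = 0.0361; rho = 0.555, p = 0.00422; r = 0.431 without the 2 farthest rats). Hsp90ab1 followed other genes: it had r = 0.587 with Dnajb1 (p = 0.00256, adjusted p = 0.0352; rho = 0.478, p = 0.0123; r = 0.476 without the 2 farthest rats) and r = 0.552 with Hspe1 (p = 0.00303, adjusted p = 0.0352; rho = 0.538, p = 0.0032; r = 0.644 without the 2 farthest rats). Without the 6 libraries these were 0.403 and 0.456 and did not pass (adjusted p = 0.197 and 0.0919). Hsp90aa1 and Hsp90ab1 themselves had r = -0.137 (p = 0.537; rho = -0.0928, p = 0.654), and the head-to-head genes Hspd1 and Hspe1 had r = 0.4659 (p = 0.0235, adjusted p = 0.093; rho = 0.552, p = 0.00299; r = 0.449 without the 2 farthest rats), or 0.333 over 24 rats.

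**Figure D4:**
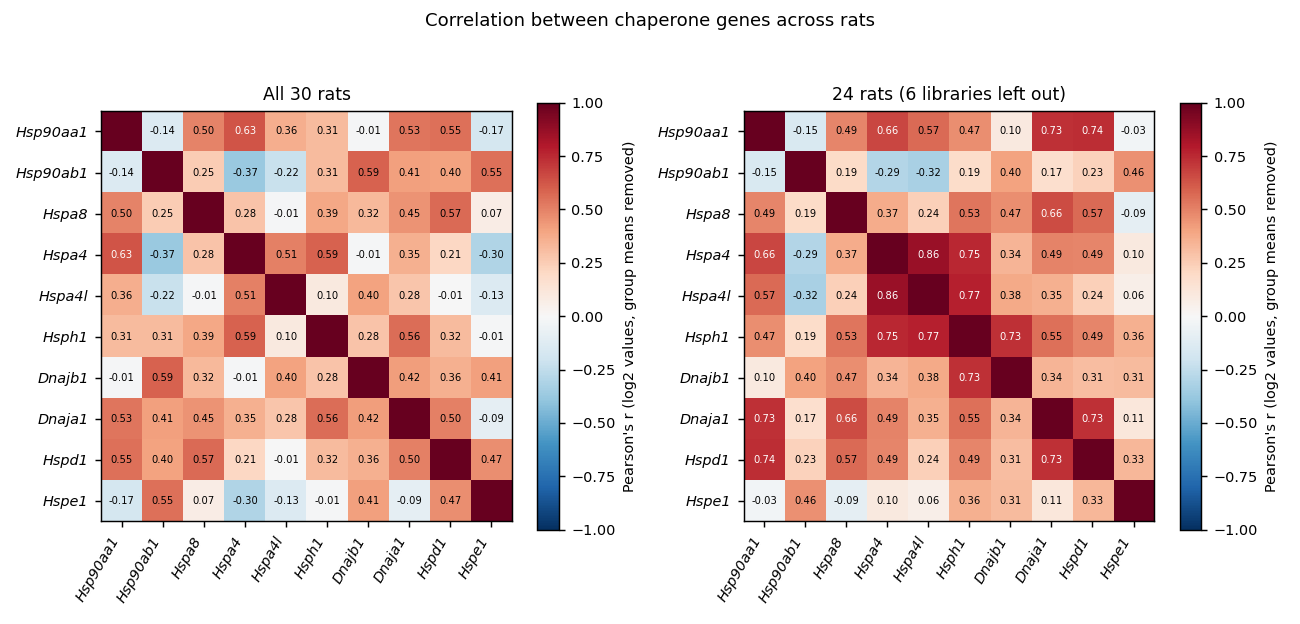
Pearson's r between the 10 chaperone genes across rats, on log2 values with the mean of each genotype removed, over all 30 rats (left) and over 24 rats without the 6 libraries named in the text (right). Hspa4, Hspa4l and Hsph1 have r from 0.0955 to 0.591 with each other on the left and from 0.754 to 0.862 on the right, while Hsp90ab1 has r of -0.137 and -0.149 with Hsp90aa1.

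Hsph1 varied with the neocortex list. It had r = 0.831 with the neocortex list (p = 0.00025, adjusted p = 0.00937; rho = 0.627, p = 0.00023), r = 0.522 without the 2 farthest rats, r = 0.585 without the 4 libraries that stand apart (adjusted p = 0.0438) and r = 0.645 over 24 rats (adjusted p = 0.00958). It did not pass after quantile normalization (r = 0.792, adjusted p = 0.126) or over the 20 rats without the 10 libraries with bulb markers (r = 0.903, adjusted p = 0.111), a version that keeps 10RT43. The size over 30 rats thus rests in part on 10RT43. Hsph1 was also below the median of its group in 8 of the 10 libraries with bulb markers, which include the 3 lowest HIP rats (10RT49, 3899; 10RT37, 3985; 10RT53, 4065.5) and the lowest AKO rat (4KAH35, 3435); the part of either tissue in its values was not tested. Hsp90ab1 (r = 0.521, p = 0.00205, adjusted p = 0.0352; rho = 0.377, p = 0.0161; r = 0.454 without the 2 farthest rats) and Dnaja1 (r = 0.538, p = 0.00481, adjusted p = 0.0361; rho = 0.297, p = 0.0648; r = 0.36 without the 2 farthest rats) were also related to this list. Without the 4 libraries r was 0.465 for Hsp90ab1 (p = 0.0494, adjusted p = 0.168) and 0.253 for Dnaja1 (adjusted p = 0.47), and over 24 rats 0.536 and 0.286 (adjusted p = 0.0813 and 0.325). Hspe1 had r = 0.363 with the striatum list over 30 rats (p = 0.0467, adjusted p = 0.13; rho = 0.55, p = 0.00179), 0.653 over 24 rats (adjusted p = 0.00958), 0.372 after quantile normalization (adjusted p = 0.211) and 0.231 over the 20 rats (adjusted p = 0.529). Hsph1 also had r = 0.439 with the estimated reads (p = 0.00732, adjusted p = 0.0421, and rho = 0.354 with p = 0.0681), which was 0.229 without the 4 libraries. Hsp90aa1 had a larger r with the estimated reads, 0.525, which did not pass (p = 0.0147, adjusted p = 0.0688). This r was 0.215 without the 2 farthest rats, 4KAH35 and 7AKO19, and 0.628 over the 20 rats (adjusted p = 0.111).

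**Figure D5:**
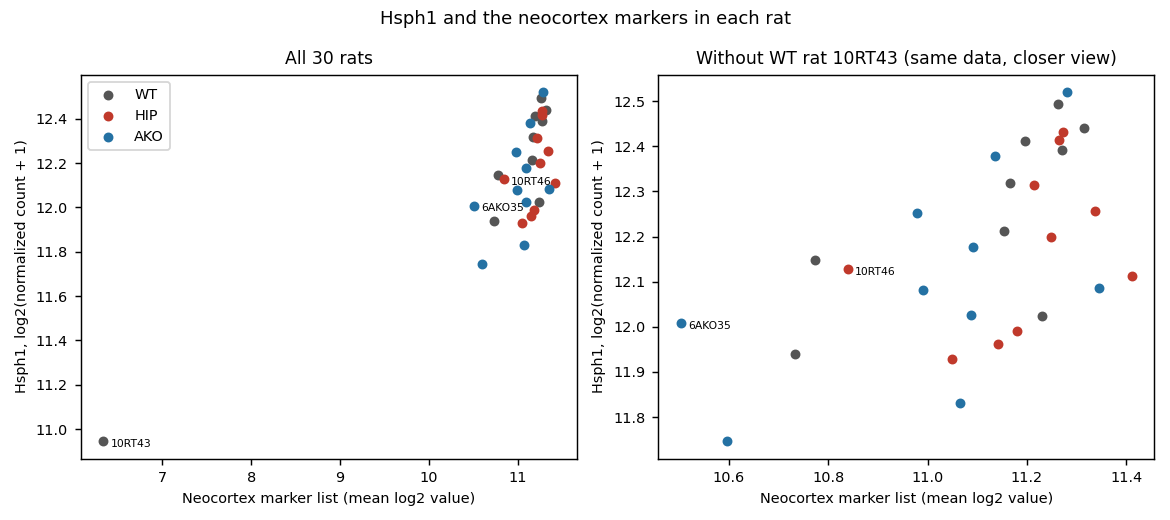
Hsph1 against the mean of the 6 neocortex markers in each rat, both on the log2 scale, for all 30 rats (left) and without WT rat 10RT43 (right, closer view). 10RT43 lies far from the others on the left (neocortex list 6.34), and the relation over the rats without the 4 libraries that stand apart had r = 0.585.

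Over 26 rats, without the 4 libraries that stand apart, the genes closest in pattern to Hsph1 among 10695 genes were Ptgfrn (r = 0.889), Tspan5 (0.878), the neurofilament light chain gene Nefl (0.878), the plasma membrane calcium pump gene Atp2b2 (0.868) and Sptssb (0.862). At the other end were the lysozyme gene Lyz2 (r = -0.864), podoplanin Pdpn (-0.862), the histone gene H3f3a (-0.847), Zyx (-0.842) and the splicing regulator Ptbp1 (-0.839). For Hspd1 the highest were the spliceosome gene Snrpd1 (r = 0.850), Actr10 (0.824), the chaperonin subunit gene Cct6a (0.814), Zc3h15 (0.797) and the mitochondrial gene Higd1a (0.793), and the lowest were Sipa1l3 (-0.771), Fbrsl1 (-0.764), Bcl9l (-0.742), Ttc7a (-0.737) and the lipogenic regulator Srebf1 (-0.735). These values are descriptions over rats and carry no test.

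The other chaperone lists were compared with the same fits. With all rats and no covariate, 0 of their genes passed an adjusted p of 0.05 in limma in any of the 3 comparisons, and the counts at an unadjusted p under 0.05 follow, to be read against 2.57%, 9.34% and 12.7% of all genes in HIP vs. WT, AKO vs. WT and HIP vs. AKO rats. Hspb1, Hspb8 and Sdf2l1 passed in some of the alternatives. Of the heat shock factors and their binding protein (Hsf1, Hsf2, Hsf4, Hsbp1), 0 of 4 had an unadjusted p under 0.05 in each comparison, and so did 0 of 8 genes of TRiC, the cytosolic chaperonin. Of 11 measured genes of inducible HSP70 and small heat shock proteins, 0 passed in HIP vs. WT rats, 1 was higher in AKO vs. WT rats, and 1 was higher and 2 were lower in HIP vs. AKO rats. Hspb8, a small heat shock protein that works with Bag3 in autophagy, ran from 264 to 611 in WT rats (median 379), from 318 to 535 in HIP rats (median 424) and from 445 to 691 in AKO rats (median 544). All 10 AKO rats were above the WT median, and the log2 fold change was 0.47 (p = 0.001, adjusted p = 0.177 in limma; adjusted p from 0.0228 to 0.413 over the alternatives); in HIP vs. AKO rats it was -0.36 (p = 0.00137, adjusted p = 0.149).

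Hspb1, the small heat shock protein HSP27 of astrocytes and vessels, ran from 45.2 to 264 in HIP rats (median 88.8) and from 92.6 to 324 in AKO rats (median 186), with 9 of 10 HIP rats below the AKO median and the log2 fold change at -0.97 (p = 0.00059, adjusted p = 0.104 in limma). The highest HIP rat was 10RT46, the library with pineal and choroid plexus markers. Over the alternatives the adjusted p ran from 0.0108, with 10RT46 left out (log2 fold change -1.14), to 0.381, with only the rats named KAH (log2 fold change -0.75, unadjusted p = 0.0568), and it was 0.0287 without the 4 libraries that stand apart (log2 fold change -1.17). Hspa1l, an HSP70 gene at low counts here (means 61.1 in HIP and 46.7 in AKO rats), had a log2 fold change of 0.41 (p = 0.0104), or 0.24 (p = 0.155) without the 10 libraries with bulb markers. Of 16 co-chaperones of HSP70 and HSP90, 1 passed: Chordc1, an HSP90 partner whose promoter holds runs of 3 units, was lower in AKO vs. WT rats (log2 fold change -0.31, p = 0.0121; 10 of 10 AKO rats below the WT median). It was -0.14 (p = 0.0953) without the 6 libraries, -0.17 (p = 0.068) for the rats named AKO, -0.53 (p = 0.00461) for those named KAH and -0.45 (p = 0.0111) without the 10 libraries with bulb markers, and its lowest value, 346, was in 4KAH27.

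Of 11 mitochondrial chaperones and proteases, 2 passed in HIP vs. AKO rats: the matrix protease subunit Clpp (-0.30, p = 0.0311) and the inner membrane protease Yme1l1 (0.21, p = 0.0289); for both, AKO rat 6KAH98 had the most extreme value (878 and 577), and without it they were -0.21 (p = 0.0602) and 0.15 (p = 0.0466). With only the 6 rats named AKO they were -0.15 (p = 0.217) and 0.15 (p = 0.0665). Of the chaperones of the endoplasmic reticulum, a separate folding compartment, 4 of 13 had an unadjusted p under 0.05 and a negative fold change in HIP vs. WT rats (Sdf2l1 -0.43, Hspa5 -0.20, Dnajb11 -0.13, Hyou1 -0.11), beside 1.46% of all genes, and 3 of 13 in HIP vs. AKO rats (Sdf2l1 -0.53, Hspa5 -0.20, Hyou1 -0.13), beside 6.9% of all genes. These rest on small margins: Hyou1 lost a p under 0.05 in 14 of 30 alternatives in HIP vs. WT rats and 15 of 33 in HIP vs. AKO rats, and Hspa5 in 7 of 30 and 10 of 33. Against the rats named KAH they were -0.015 (p = 0.851) and -0.052 (p = 0.661), and against those named AKO -0.21 (p = 0.00171) and -0.30 (p = 0.00341); Sdf2l1 was -0.37 (p = 0.0948) and -0.63 (p = 0.00107). Without the 10 libraries with bulb markers (7 vs. 7 rats), the log2 fold changes in HIP vs. WT rats kept their direction, at -0.34 for Sdf2l1, -0.16 for Hspa5, -0.13 for Dnajb11 and -0.092 for Hyou1 (p = 0.122, 0.152, 0.0726 and 0.176). Sdf2l1 in HIP vs. AKO rats (9 of 10 HIP rats below the AKO median; adjusted p = 0.143 in limma) had an adjusted p from 0.0287 to 0.428 over the alternatives. The median log2 fold change of the endoplasmic reticulum list was -0.080 in HIP vs. WT rats, and its difference from the cytosolic and mitochondrial genes was not tested.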

How the data were processed

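Frontal cortex RNA of 30 male rats was sequenced from poly(A) libraries. The deposited values are a signal: the authors aligned reads to rn7 (Partek 10.0.22.0228, STAR 2.7.8a and Bowtie2 are named) and divided counts by DESeq2 size factors. Each comparison used limma 3.58.1 in R 4.3.3 (lmFit, eBayes with trend, two-sided) on log2(normalized count + 1) for genes with a mean of at least 1, with Benjamini-Hochberg adjustment over all genes tested. Fold changes are on this scale. Correlations used permutation within groups (Python 3.11.15, numpy 2.4.6, pandas 2.3.3, scipy 1.17.1). The fits were tested on simulated data. Genes named are the 10 chaperones; list genes with an unadjusted p under 0.05, up to 5 per list and comparison; and the 5 highest and 5 lowest correlates of Hsph1 and of Hspd1. The members and lists were chosen with earlier results of these data known. No symbol among the measured genes matched Iapp (amylin, the knockout target), Cirbp, Rbm3, Hspa1a, Hspa1b, Manf or St13, whose expression is not analysed here. The promoter of Hspa1a is among the 9 examined for inducible HSP70 and small heat shock proteins. The striatum list was added as a correlate, and the version without libraries with olfactory bulb markers as an alternative, after seeing the data. Tissue is frontal cortex in the labels; the study's text also names cerebral cortex and hippocampus.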

Additional observations from a re-analysis of the deposited data

Results flagged for a closer look

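In 10 groups of 10 rats, a single animal lay far from the others of its genotype, with a gap to its nearest neighbour, as a share of the range of the group, above the 95% critical value of Dixon's test. Chance marks about 1 in 20 groups. Of the 30 groups of the 10 chaperone genes, 6 were marked (1.5 by chance), and of the 60 groups over the 20 genes examined, 10 (3 by chance). The same rats recur across genes, so these groups are not independent. Dixon's test was run on normalized counts without the log2 scale, and the excess over chance was not tested.

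The 6 among the chaperones were Hsp90aa1 in HIP rat 10RT41 (17166), Hsph1 in WT rat 10RT43 (1972), Dnajb1 in AKO rat 4KAH27 (1813), Dnaja1 in WT rat 10RT43 (2632), Dnaja1 in HIP rat 10RT41 (4074) and Hspe1 in AKO rat 6KAH98 (841). The other 4 were Hspb1 in HIP rat 10RT46 (264), Hspb1 in AKO rat 4KAH27 (324), Clpp in AKO rat 6KAH98 (878) and Yme1l1 in AKO rat 6KAH98 (577). All values are normalized counts. These 10 values fell in 5 rats, 4 of which had other tissue markers or a low correlation to the other libraries, as given with the libraries; the part of these in the values was not tested.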

How the results depend on the processing

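Of 44 fold changes of named genes, 5 kept their direction and their side of an unadjusted p of 0.05 in every alternative, among them Hsp90aa1 in HIP vs. AKO rats (0.15 to 0.28). Hspa8 in AKO vs. WT rats kept them in 32 of 33 (-0.28 to -0.13). Of 1410 alternative values, 1241 kept both, 72 lost and 44 gained a p under 0.05, and 53 changed sign, in 18 fold changes. The number of chaperone genes with an adjusted p under 0.05 in limma was 0 in each comparison under each alternative; those with an unadjusted p under 0.05 follow.

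In AKO vs. WT rats that number, 1, became 4 with all 30 rats in 1 fit (beside 11.8% of all genes in the same fit), 2 after quantile normalization (9.29%), 3 without the 4 libraries that stand apart (9.15%), 2 with only the rats named KAH (10.5%), 2 with only those named AKO (7.45%), 5 without the 6 libraries (11.3%) and 3 without the 10 libraries with bulb markers (11.3%), and ran from 1 to 3 with 1 rat left out (7.68% to 11.6%). In HIP vs. AKO rats, 2 became 4 without the 4 libraries (14.2%), 4 without the 6 (15.8%) and 3 without the 10 (11.2%), and ran from 1 (without HIP rat 10RT41, 9.69%) to 4 with 1 rat left out (9.69% to 17.6%). The difference between these counts and shares was not tested. The correlated pairs, 10, became 1 after quantile normalization, 4 without the 4 libraries, 0 without the 10 libraries with bulb markers (20 rats), and 2, 0 and 0 within WT, HIP and AKO rats. Over the 45 pairs, the median r of 0.324 became 0.195, 0.364, 0.311, 0.140, 0.503 and 0.331 in the same order. The versions without 6 and without 10 libraries were chosen after seeing the data. The cause was not tested.

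The sign changed as follows. In HIP vs. WT rats, without the 4 libraries: Hsp90ab1 -0.0054, Hspa4l 0.0067, Hsph1 -0.10. Without the 10 libraries: Hspa8 0.016, Hspd1 0.028. With estimated reads as a covariate and 10RT43 left out: Hspa4 -0.10, Hsph1 -0.18, Dnaja1 -0.015, Hspe1 0.012. With 1 rat left out, the ranges were -0.018 to 0.038 for Hsp90ab1, -0.069 to 0.0099 for Hspa4l, -0.091 to 0.081 for Hsph1 and -0.032 to 0.0098 for Hspd1.

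In AKO vs. WT rats, without the 6 libraries: Hsp90ab1 -0.015, Hspe1 -0.080. Without the 10 libraries: Dnajb1 0.035, Hspd1 0.021. With only the rats named AKO: Hsph1 0.076, Hspe1 -0.072. With only those named KAH: Dnajb1 0.013. With 1 rat left out: Hsph1 -0.15 to 0.018, Hspd1 -0.030 to 0.016, Hspe1 -0.031 to 0.075.

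In HIP vs. AKO rats, without the 6 libraries: Hsp90ab1 0.010, Hspe1 0.020. Without the 10 libraries: Dnajb1 -0.068. With only the rats named AKO: Hsph1 -0.035, Hspd1 -0.0031, Hspe1 0.034. With only those named KAH: Dnajb1 -0.073. With 1 rat left out: Dnajb1 -0.023 to 0.089, Hspd1 -0.022 to 0.024. None of these had an unadjusted p under 0.05, and the cause was not tested.

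Limits: no paired analysis was possible because the rats are separate animals. Whole reads were not recovered, so counting error could not be modelled, and low-count genes such as Hspa1l carry more of it. The age of the AKO rats sequenced here is not stated separately, and in the comparisons with AKO rats genotype cannot be told apart from line.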
